A study of Mus musculus with 2 samples.

Results

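The genes described here are the cornified envelope genes of the epidermal differentiation complex (EDC) in the epidermis of newborn mice that lack the M3 muscarinic acetylcholine receptor. They were chosen by name, as every gene symbol that begins with Lce or Sprr together with Lor, Flg, Flg2, Hrnr, Ivl, Rptn and Crnn. This gave 43 of the 27933 gene symbols in the count tables, of which 21 are Lce genes, 15 are Sprr genes and 7 are single genes. The choice used no measured value.

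Single-cell RNA sequencing counted transcripts by unique molecular identifiers (UMIs) in the epidermis of 2 male Chrm3 KO mice of the C57BL/6J strain at postnatal day 0, with 1 library per mouse (mouse 1 and mouse 2). Both mice carry the knockout in all groups described below, no treatment is given in the labels, the epidermis was taken off the dermis after incubation in a separation buffer, and dead cells were depleted. No wild-type cells enter any value below, and no effect of the genotype was tested. With 2 mice, p-values measure the spread between these 2 libraries. The stated filter of 900 to 7700 genes and under 10% mitochondrial UMIs kept 7607 of 10816 barcodes in mouse 1 and 11881 of 15867 in mouse 2, with medians of 10480 and 10577 UMIs per cell. The kept cells held 13 and 19 UMIs assigned to Chrm3, and a tag at the 3′ end of a transcript does not tell whether the deleted part of the gene was present. The libraries shared 127 barcode sequences, of which 34 were among the kept cells of both.

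The EDC is a cluster of neighbouring genes that are switched on as keratinocytes (KCs) leave the basal layer and cornify. Loricrin (Lor), involucrin (Ivl), the small proline-rich proteins (Sprr) and the late cornified envelope proteins (Lce) are crosslinked by transglutaminases under the plasma membrane into the cornified envelope. Filaggrin (Flg), filaggrin 2 (Flg2), hornerin (Hrnr), repetin (Rptn) and cornulin (Crnn) belong to the fused-type S100 proteins, of which filaggrin is stored in keratohyalin granules and bundles keratin filaments in the upper layers. In textbook descriptions involucrin appears in the spinous layer, loricrin and filaggrin in the granular layer, and Lce proteins last.

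All 43 members lie on chromosome 3 of GRCm38 (mm10), between 92080271 and 93399442. Lor stands first at 92080271 to 92083142 on the minus strand. The Sprr genes follow between 92215799 and 92500493, the Lce genes between 92620081 and 93019060, and the fused-type S100 genes Crnn, Flg2, Flg, Hrnr and Rptn between 93144787 and 93399442. In 32 members 20 or more UMIs were counted in the kept cells. Sprr2f, Sprr2j-ps, Sprr3, Sprr4, Lce3a and Lce3b had 0 UMIs there, which allows up to 0.0316 CPM (UMIs per 1000000 UMIs of the group) in mouse 1 and 0.0202 CPM in mouse 2. Sprr2a1, Sprr2a2, Sprr2i, Sprr2k and Crnn had 1 to 19 UMIs. The last 400 bases of Sprr2a1 and Sprr2a2 transcripts share all of their 90-base windows with each other or with Sprr2a3 (100% of windows). The counts of these 3 genes are therefore uncertain, and the few UMIs of Sprr2a1 and Sprr2a2 do not show that they are scarce. Among the Lce genes, Lce3c shared 36.7% of its windows with other members, Lce3d 26.0% and Lce1e 16.1%. The others detected shared between 0 and 18.3%, so counts of single Lce genes are uncertain to that extent. Flg is listed under 7 identifiers that were summed, and 1 of them held 98.9% of its UMIs.

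The promoters of 8 members are shown because the families differed in them. The sequences are the 130 bases before the transcription start from RefSeq on GRCm38.p6, written 5′ to 3′ on the gene's strand. Capitals mark the AP-1 motif TGANTCA, searched on both strands, and the TATA motif TATAAA, searched on the gene's strand. The motifs do not overlap each other, and a line without capitals holds neither in these bases.
Flg, chr3:93273416-93273545, plus strand: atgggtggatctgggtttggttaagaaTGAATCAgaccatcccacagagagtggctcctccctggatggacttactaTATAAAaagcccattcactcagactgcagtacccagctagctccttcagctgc
Rptn, chr3:93393569-93393698, plus strand: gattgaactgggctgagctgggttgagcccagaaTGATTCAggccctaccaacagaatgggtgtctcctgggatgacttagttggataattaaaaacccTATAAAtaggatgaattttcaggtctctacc
Ivl, chr3:92573736-92573865, minus strand: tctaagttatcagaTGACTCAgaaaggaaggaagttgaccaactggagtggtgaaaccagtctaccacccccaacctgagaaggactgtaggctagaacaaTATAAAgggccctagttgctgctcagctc
Sprr1b, chr3:92438780-92438909, minus strand: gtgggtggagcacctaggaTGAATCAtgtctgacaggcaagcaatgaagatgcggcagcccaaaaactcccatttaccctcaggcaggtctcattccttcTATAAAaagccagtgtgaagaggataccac
Lor, chr3:92083143-92083272, minus strand: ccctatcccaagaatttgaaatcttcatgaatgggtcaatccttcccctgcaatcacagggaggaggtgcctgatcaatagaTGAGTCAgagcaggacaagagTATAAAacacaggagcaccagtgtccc
Hrnr, chr3:93319619-93319748, plus strand: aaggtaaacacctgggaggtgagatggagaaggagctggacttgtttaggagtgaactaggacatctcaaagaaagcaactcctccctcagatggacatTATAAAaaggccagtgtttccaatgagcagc
Lce1m, chr3:93019062-93019191, minus strand: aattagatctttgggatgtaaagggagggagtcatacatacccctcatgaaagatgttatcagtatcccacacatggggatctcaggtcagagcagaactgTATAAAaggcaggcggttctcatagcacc
Lce1b, chr3:92656927-92657056, minus strand: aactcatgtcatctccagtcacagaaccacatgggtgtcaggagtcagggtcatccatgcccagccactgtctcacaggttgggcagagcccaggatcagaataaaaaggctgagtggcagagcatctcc
The first 4 genes were called higher in differentiated KCs and did not pass the test at the step after it. Lor and Hrnr were called higher at both steps, and Lce1m and Lce1b are among the most abundant Lce genes.

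A promoter of 300 bases, from 250 before to 50 after the start, was found for 41 of the 43 members. TGANTCA was present in 15 of 41 (36.6%), against 7.93% of 27025 mouse promoters of the same length. The motif was present in 6 of 7 single genes (the exception being Hrnr), in 9 of 14 Sprr genes and in 0 of 20 Lce genes. TATAAA was found in 18 of 41 (43.9%), against 8.88% of all promoters, again in 6 of 7 single genes and 10 of 14 Sprr genes, and in 2 of 20 Lce genes (Lce1d and Lce1m). The Grainyhead-like motif AACNGGTT, searched on both strands, was present in 1 of 41 (2.44%), against 2.01% of all promoters. These matches describe the letters in these windows and say nothing of binding.

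To ask when the members appear, interfollicular epidermis (IFE) KCs were clustered with the members left out of the genes used, and clusters were named from markers that are not members. The stages were basal KCs (1358 cells in mouse 1 and 2434 in mouse 2), basal proliferating KCs (288 and 541), transition KCs with basal and suprabasal keratins (248 and 404), differentiated KCs (207 and 245) and a small terminally differentiated-like cluster (38 and 44). The last cluster is mixed. Its summed level of the 12 terminal markers was 2072 and 2098 CPM, beside 2055 and 1454 CPM in differentiated KCs, while its Krt10 level was 12604 and 3123 CPM, beside 31766 and 29154 CPM. Krt14, a basal keratin, stood at 4429 and 8365 CPM in it, beside 1129 and 2335 CPM in differentiated KCs. The 7 melanocyte markers summed to 710 and 727 CPM, beside 4.22 and 90.8 CPM in differentiated KCs, while the T cell, Merkel, endothelial and erythroid lists were at 0 to 2.62 CPM. Scrublet called 1 and 2 of its cells as doublets, none of them among the cells with 100 or more Lce UMIs. The part of these other cells' transcripts in the results below was not tested.

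In basal and transition KCs the abundant members were close to their level in cells that do not make the envelope. Lor was measured at 56.8 CPM in mouse 1 and 80.6 CPM in mouse 2 in basal KCs, at 43.5 and 84.8 CPM in transition KCs, and at 42.6 and 62.8 CPM in melanocyte-like cells, which were taken as the reference for free RNA. Flg was measured at 134 and 221 CPM in basal KCs, 84.1 and 161 CPM in transition KCs and 122 and 190 CPM in melanocyte-like cells. Of 32 members tested, 0 were higher and 0 lower in transition than in basal KCs by edgeR's quasi-likelihood test at an adjusted p under 0.05, whereas 11.4% of all 11582 genes were higher and 11.7% lower. The median log2 difference of the 30 members with UMIs in both stages was 1.02, and that of all genes was -0.01. Over all 32 it was 0.96, and -0.16 in mouse 1 alone over the 28 members that could be compared there. DESeq2 likewise called 0 members, and 0 had an unadjusted edgeR p under 0.05. With no filter on low counts, 7 of 37 members were called higher and 2 lower.

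The fused-type S100 genes and involucrin were higher in the differentiated stage, with both mice above their basal and transition levels. Within the stage Flg and Ivl rose late along an index of other genes, described below. Flg rose from 84.1 and 161 CPM to 4749 and 3642 CPM, a log2 fold change of 5.21 ± 0.51 (approximate SE from edgeR's F statistic, 2 mice, edgeR adjusted p = 7.23e-06). Hrnr rose from 7.96 and 20.1 CPM to 272 and 237 CPM (log2 fold change 4.23 ± 0.49, edgeR adjusted p = 2.56e-05). Ivl rose from 1.42 and 1.70 CPM to 86.1 and 49.0 CPM (log2 fold change 5.52 ± 0.44, edgeR adjusted p = 1.24e-06). Rptn, a scarce member of the same S100 group, rose from 0.284 and 0.379 CPM to 11.3 and 10.6 CPM (edgeR adjusted p = 2.76e-05). Lor also rose here, from 43.5 and 84.8 CPM to 1843 and 1577 CPM (log2 fold change 4.84 ± 0.30, edgeR adjusted p = 1.82e-07). For these 5 genes both mice lay above both transition values. Crnn was counted with 2 and 3 UMIs in differentiated KCs and with 0 and 3 in the terminal cluster.

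The Sprr1 pair rose at the same step but unevenly between mice. Sprr1b rose from 0.569 and 2.08 CPM to 138 and 57.0 CPM (log2 fold change 6.16 ± 0.66, edgeR adjusted p = 1.28e-05). Sprr1a reached 42.6 CPM in mouse 1 and 7.68 CPM in mouse 2, from 1.14 and 2.84 CPM (log2 fold change 3.65 ± 1.03, edgeR adjusted p = 0.0172). Few cells carried these transcripts, since 97.6% and 82.2% of the Sprr1a UMIs of differentiated KCs lay in 5 cells of each mouse. In total 11 of 32 members were higher in differentiated than in transition KCs and 0 were lower, beside 15.4% of all genes that were higher and 14.0% that were lower. The 11 were Flg, Flg2, Hrnr, Rptn, Ivl, Lor, Sprr1a, Sprr1b, Sprr2a3, Lce1a1 and Lce1m. The median log2 difference of the 29 members with UMIs in both stages was 1.36, beside -0.04 for all genes. Over all 32 it was 1.37, and it was 4.07 in mouse 1 alone and 0.59 in mouse 2 alone. A member enters the test only if it is abundant in some stage, so these counts are a description of the 32. At a clustering resolution of 1.2 the call was made for 1 of 21 members, and the log2 differences of Flg2, Hrnr, Ivl, Rptn and Sprr1a were below 0.

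The summed level of the Lce family was 153 and 77.1 CPM in differentiated KCs, beside 20.2 and 73.8 CPM in transition KCs and 26.8 and 32.9 CPM in melanocyte-like cells, so that mouse 2 barely differed between the stages. Of 19 Lce genes tested, 2 (10.5%), Lce1a1 and Lce1m, passed the test, beside 15.4% of all genes. Fitted with the mouse as a block, Lce1b passed too (edgeR adjusted p = 0.0384). The count depended on the clusters and on the filter. At a resolution of 1.2 it was 0 of 12. With the members allowed in clustering 10 of 12 Lce genes were higher (19 of 21 members, beside 1825 of 11281 genes). With no integration of the mice it was 12 of 13 (21 of 22 members, beside 2176 of 11480 genes), and with no filter on low counts 10 of 19. Lce1m was at 5.40 and 18.2 CPM in transition and at 31.4 and 20.8 CPM in differentiated KCs (log2 fold change 1.17 ± 0.38, edgeR adjusted p = 0.0345).

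**Figure D1:**
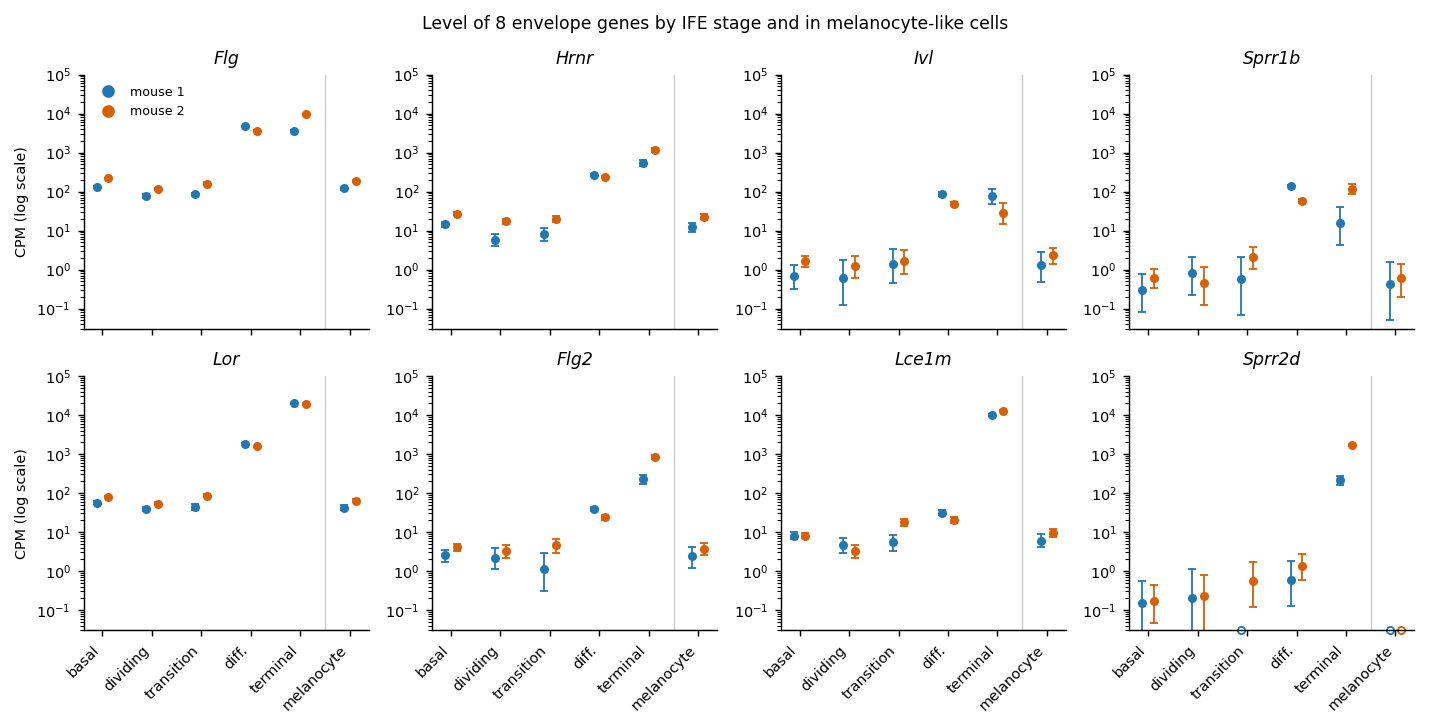
Level in CPM (log scale) of 8 envelope genes in each IFE stage and in melanocyte-like cells, with 1 point per mouse, bars for exact 95% Poisson intervals of the counts and open points at the axis for 0 UMIs. Flg, Hrnr, Ivl and Sprr1b climb at the differentiated stage, Lor climbs there and again in the terminal cluster, and Lce1m and Sprr2d climb in the terminal cluster, where Lce1m reached 10065 and 12722 CPM.

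In the terminal cluster all 19 Lce genes tested were higher than in differentiated KCs, beside 12.2% of all genes. Log2 fold changes ranged from 7.44 to 9.53 and edgeR adjusted p-values from 3.41e-08 to 0.000247. Lce genes that were scarce in the other stages, the Lce3 genes among them, entered the test through this cluster. Lce1k, for example, was at no more than 0.682 CPM in basal, transition and differentiated KCs. The count is therefore a description of the 19. The summed Lce level in the cluster was 27858 CPM in mouse 1 and 58291 CPM in mouse 2. Lce1m, the most abundant, stood at 10065 and 12722 CPM (log2 fold change 8.48 ± 0.39, edgeR adjusted p = 7.66e-08). Lce1b reached 2079 and 5705 CPM and Lce3c, of the Lce3 subfamily, 583 and 819 CPM. For these 3 genes both mice were above every other stage.

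Part of the Sprr2 group behaved like the Lce genes. Sprr2d rose from 0.603 and 1.36 CPM to 212 and 1690 CPM (log2 fold change 9.67 ± 0.91, edgeR adjusted p = 8.68e-06). Sprr2b was counted with 0 and 2 UMIs in differentiated KCs and with 2 and 452 UMIs in the terminal cluster, so that its rise (edgeR adjusted p = 0.000238) rests on mouse 2, where 5 cells held 100% of its UMIs. Sprr2e had 0 UMIs in differentiated KCs of both mice and 3 and 63 UMIs in the terminal cluster, and Sprr2h rose from 7 and 4 UMIs to 8 and 149 UMIs. Sprr2a3 did not pass this test (edgeR adjusted p = 0.489) and was at 5.43 and 9.38 CPM in differentiated KCs and at 3.86 and 23.5 CPM in the terminal cluster.

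The single genes split at this step. Lor rose further to 19787 and 19750 CPM (log2 fold change 3.22 ± 0.27, edgeR adjusted p = 3.5e-06). Flg2 rose from 39.0 and 23.7 CPM to 228 and 834 CPM (log2 fold change 3.88 ± 0.47, edgeR adjusted p = 7.17e-05), and Hrnr from 272 and 237 CPM to 532 and 1161 CPM (log2 fold change 1.49 ± 0.41, edgeR adjusted p = 0.0168). Flg stood at 3561 CPM in mouse 1, under its level of 4749 CPM in differentiated KCs, and at 9662 CPM in mouse 2, above 3642 CPM (edgeR adjusted p = 0.547). Ivl was at 77.2 and 28.8 CPM (edgeR adjusted p = 0.24), Sprr1b at 15.4 and 118 CPM (edgeR adjusted p = 0.452), and Rptn was counted with 0 and 5 UMIs (edgeR adjusted p = 0.458). In all, 26 of 32 members were higher and 0 were lower, beside 12.2% of all genes that were higher and 12.6% that were lower. The Lce3 genes and Sprr2b, Sprr2d, Sprr2e and Sprr2h were at no more than 1.41 CPM in any other stage. They entered the test through this cluster, so the count is a description of the 32. With no filter on low counts, 28 of 37 members were higher and 2 lower. The median log2 difference was 8.15 over the 31 members with UMIs in both stages, beside -0.02 over all genes. With the mouse as a block Sprr1a, at 11.6 and 246 CPM, was higher as well (edgeR adjusted p = 0.00918). At a resolution of 1.2 the count was 13 of 21, with 5 of 12 Lce genes, beside 1622 of 11011 genes. The terminal stage of that setting held other cells (62 and 71), so its count is not for the cluster described here. With the members allowed in clustering or with no integration of the mice no terminal cluster was named.

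These terminal levels came from few cells. Of the 38 and 44 cells of the cluster, 7 and 10 held 100 or more Lce UMIs, and 5 cells of each mouse held 92.9% and 80.8% of its Lce1m UMIs. Lor was spread similarly, with 80.3% and 74.4% of its UMIs in 5 cells. The share of cells with at least 1 Lce1m UMI was 78.9% (exact 95% binomial interval 62.7% to 90.4%) in mouse 1 and 59.1% (43.2% to 73.7%) in mouse 2, against 6.18% and 6.58% of melanocyte-like cells. Thinned to 3000 UMIs, which left 20 and 30 cells of the cluster, the shares were 65.0% and 50%, against 2.36% and 2.50%. Median depths were 4597 and 8880 UMIs in the terminal cluster and 8786 and 9686 UMIs in melanocyte-like cells.

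Onset was taken as the first stage at which a member reached 10% of its highest stage level in both mice. By this measure 0 members began in basal or transition KCs, 6 began in differentiated KCs (Flg, Hrnr, Ivl, Rptn, Sprr1b and Sprr2a3) and 26 began in the terminal cluster. Flg was at 1.77% and 1.67% of its highest level in transition KCs and at 100% and 37.7% in differentiated KCs. Lor missed the limit narrowly, with 9.32% and 7.98% in differentiated KCs, and Flg2 passed it in mouse 1 (17.1%) and not in mouse 2 (2.84%). Sprr1a was highest (100%) in differentiated KCs of mouse 1 but at 3.12% there in mouse 2, so mouse 2 alone placed it among the 26. The Lce genes were far below the limit in differentiated KCs, at no more than 1.78% in mouse 1 and 0.343% in mouse 2. Of the 6 early members 4 carry TGANTCA in the promoter, and of the 25 late members with a promoter 7 do, beside 7.93% of all promoters. These 7 are Lor, Flg2, Sprr1a, Sprr2b, Sprr2d, Sprr2e and Sprr2h, which are all the late members outside the Lce family. The Lce genes carry it in 0 of 20 promoters, and all 19 Lce genes with an onset were late. Among late members the motif thus went with the family. No Lce gene was early, so onset could not be compared within the Lce family. With the limit at 50%, Flg itself began in the terminal cluster and 0 members came later than it, against 26 at 10%. At a clustering resolution of 1.2, and with the members allowed among the genes used for clustering, 0 came later as well. In each of these settings Flg did not begin before the last stage named, so 0 was the only possible count. With the members allowed no terminal stage was named. Resolution 1.2 and the members allowed also moved the first onsets. At a resolution of 1.2, 7 members began in basal and 2 in transition KCs, and 15 and 2 with the members allowed.

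**Figure D2:**
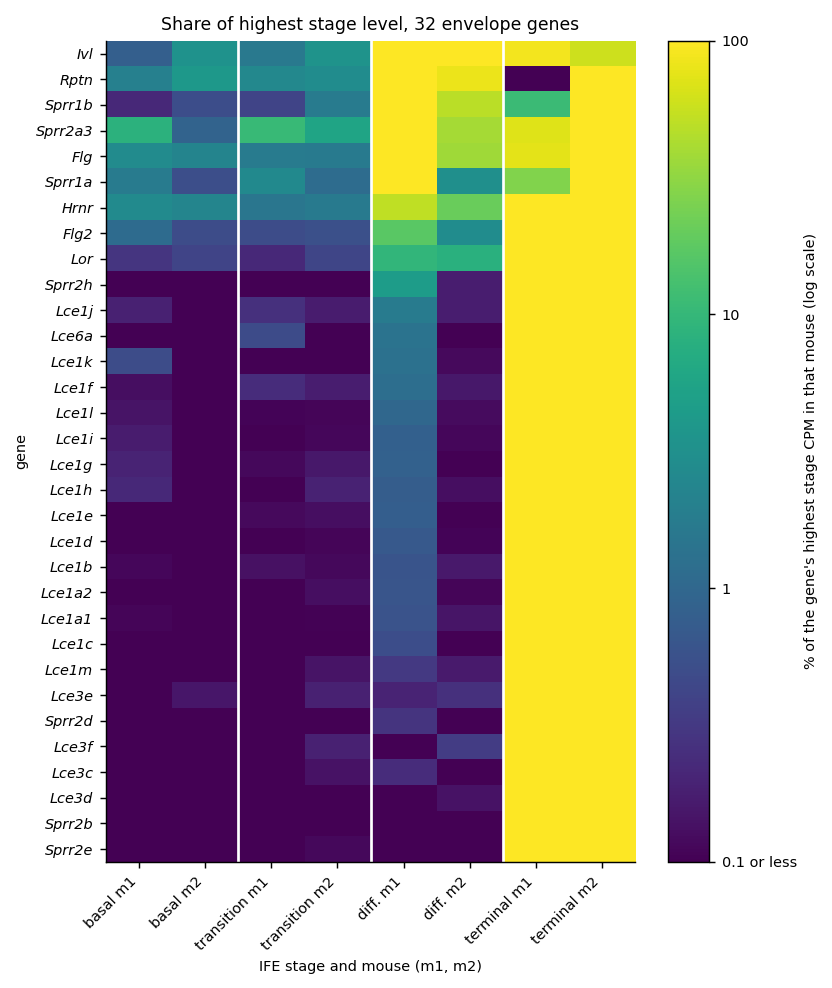
Level of each of the 32 members with 20 or more UMIs in each stage and mouse (columns), as a percentage of its own highest stage level in that mouse, on a log colour scale that ends at 0.1%. Members are sorted by their mean percentage in differentiated KCs. The rows from Ivl to Hrnr are bright in the differentiated columns, except Sprr1a in mouse 2 (3.12%). The Lce rows are bright in the terminal columns only, with at most 1.78% before.

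The order was also read by ranking single cells, within the cells that the clustering had placed in the suprabasal stages. The 1186 cells of the transition, differentiated and terminal stages were ranked by an index of differentiated and terminal markers against basal markers, none of them a member, and cut into 10 bins. Along this index Flg rose in both mice from 118 and 171 CPM in bin 1 to 1213 and 3213 CPM in bin 9 and 11496 and 9424 CPM in bin 10. Ivl, at 11.8 and 17.7 CPM in bin 9, reached 218 and 147 CPM in bin 10. In bin 7, where 83 of 119 cells were differentiated KCs, Flg was at 362 and 275 CPM and Ivl at 9.08 and 5.48 CPM. Lce1m was also high in the middle of the index, in bins that differed between mice. In mouse 1 it was at 9.41 CPM in bin 4, 494 CPM in bin 5, 78.1 CPM in bin 8 and 842 CPM in bin 10. In mouse 2 it was at 905 CPM in bin 4, 680 CPM in bin 5, 57.1 CPM in bin 8 and 1167 CPM in bin 10. Lor had a similar course, with 914 CPM in bin 5 of mouse 1 and 1480 CPM in bin 6 of mouse 2, 540 and 456 CPM in bin 8 and 5975 and 5369 CPM in bin 10. The 82 cells of the terminal cluster were spread over the index, with 14 in bin 1, 3 in bin 4, 6 in bin 5, 7 in bin 6, 22 in bin 8 and 4 in bin 10. Bins 4, 5 and 6 also held 116, 103 and 71 transition KCs. In the transition stage no Lce gene exceeded 5.40 CPM in mouse 1 and 18.2 CPM in mouse 2. Mouse 2 gave 94 cells to bin 4, which held 0 differentiated KCs, and had 404 transition KCs in all. At 905 CPM, the Lce1m UMIs of that bin in mouse 2 could lie only in small part in transition KCs. Most of them lay in terminal-cluster cells of the bin, of which there were at most 3. Which cells carried the Lce UMIs of the other middle bins was not tested. Flg reached 10% of its highest bin at bin 9. Of the 32 members 6 reached theirs later, 4 in that bin with Flg itself included, 20 earlier, and 2 in no bin common to both mice. The earlier ones included 15 of 19 Lce genes, unlike the order by clusters. Most Lce UMIs of these 1186 cells lay in the terminal cluster. There 16 and 15 cells held 20 or more Lce UMIs, beside 5 and 5 differentiated and 0 and 1 transition KCs. How these few cells were ranked thus weighs on the bins of Lce genes, which give no separate order of onset.

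**Figure D3:**
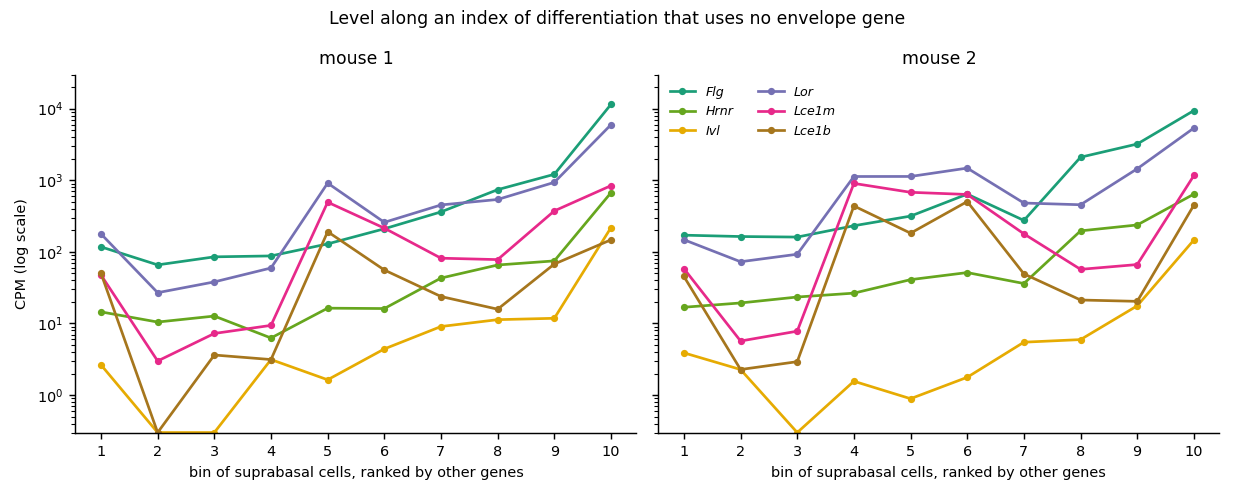
Level in CPM (log scale) of 6 envelope genes in 10 bins of suprabasal cells, ranked by markers that are not envelope genes, with 1 panel per mouse and values of 0 drawn at the lower axis. Flg, Hrnr and Ivl rise toward bin 10, whereas Lce1m, Lce1b and Lor also have a maximum between bins 4 and 6, for Lce1m in bin 5 of mouse 1 (494 CPM) and bin 4 of mouse 2 (905 CPM).

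For comparison a list of 12 other genes was read, called the assembly list, which is wider than the genes that assemble the envelope. It held Tgm1, Tgm3, Tgm5, Evpl, Ppl, Kprp, Cnfn, Asprv1, Casp14, Padi1, Padi3 and Blmh, of which 11 could be tested. Of these, 3 were higher in transition than in basal KCs, beside 11.4% of all genes. They were Evpl and Ppl, the plakin scaffold, and the protease Casp14. DESeq2 called 2 genes of the list, Evpl among them, and with the mouse as a block 5 genes of the list were called. Evpl, for example, was at 21.6 and 21.3 CPM in basal and at 50.9 and 48.5 CPM in transition KCs (log2 fold change 1.30 ± 0.10, edgeR adjusted p = 1.62e-06). At the differentiated stage 9 of 11 were higher, beside 15.4% of all genes. Among the 9 was the transglutaminase Tgm3, which rose from 0.284 and 1.51 CPM to 64.7 and 68.1 CPM (log2 fold change 6.13 ± 0.32, edgeR adjusted p = 5.34e-08). In the terminal cluster 3 of 11 were higher (Kprp, Cnfn and Asprv1, of which DESeq2 called 2) and 2 were lower. Of all genes 12.2% were higher and 12.6% were lower. Tgm3 fell to 23.1 and 7.85 CPM (edgeR adjusted p = 0.000643) and Evpl to 54.0 and 49.7 CPM (edgeR adjusted p = 1.23e-05). At a resolution of 1.2, where the differentiated and terminal stages held other cells, both were higher in the terminal stage, by 1.86 and 1.18 on the log2 scale. Kprp, an EDC gene that is not a member, followed the Lce pattern, from 3.82 and 1.54 CPM to 216 and 374 CPM (log2 fold change 6.56 ± 0.43, edgeR adjusted p = 5.22e-07). Of the other fused-type S100 genes Tchh passed no test between stages.

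Outside the IFE, the members were compared with melanocyte-like cells (437 and 730 cells) as a measure of free RNA. Scrublet called 43 and 91 of these cells as doublets, and 13 of 145 and 20 of 193 Langerhans-like cells, so their counts may not come from free RNA alone. In IFE KCs as a whole all 23 members that could be tested were higher, with log2 fold changes from 1.75 to 4.94, beside 24.2% of all 13406 genes. A member enters this test only if it is abundant in some cell type, so the count is a description of the 23. With no filter on low counts, 32 of 37 were higher. Transcripts of the abundant members were found in cells of every type. Flg had at least 1 UMI in 67.5% and 84.9% of melanocyte-like cells, and in 69.0% and 88.6% of Langerhans-like cells, whose levels of 118 and 193 CPM were close to the 122 and 190 CPM of melanocyte-like cells. A UMI of Flg in a cell of these types was read as background. By edgeR, 0 of the 23 members were higher in hair follicle, sebaceous, Langerhans-like, T cell-like, Merkel-like and dermal-like cells, whereas the share of all genes that were higher was 24.6%, 22.8%, 21.7%, 12.9%, 7.5% and 11% in the same order. At an unadjusted p under 0.05 there was 1 such member, Lor in Langerhans-like cells. DESeq2 called 1 member higher in these cells, and with the mouse as a block Lor was called there (edgeR adjusted p = 0.0244). In sebaceous cells Lor, at 22.8 and 36.5 CPM, and Flg, at 53.7 and 92.3 CPM, were lower than in melanocyte-like cells (edgeR adjusted p = 0.0304 and 0.0279), beside 28.2% of all genes that were lower. DESeq2 called neither, and with the mouse as a block Hrnr and Lce1m were lower as well (edgeR adjusted p = 0.0366 and 0.0403).

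In upper follicle KCs, marked by Krt79, Sprr1a and Ivl were higher than in melanocyte-like cells, while Lor and Flg did not pass the test. With the mouse as a block Sprr1b was higher too (edgeR adjusted p = 0.0454), and Lor (edgeR adjusted p = 0.0266) and Hrnr (edgeR adjusted p = 0.012) were lower. Sprr1a was at 78.1 and 48.4 CPM, beside 0.432 and 0.484 CPM in melanocyte-like cells (log2 fold change 6.99 ± 0.49, edgeR adjusted p = 1.09e-10), and 11.1% and 5.86% of the cells had a UMI, beside 0.458% and 0.548%. Thinned to 3000 UMIs, the shares were 7.03% and 4.28%, beside 0% and 0.139%, with median depths of 15285 and 16491 UMIs. Ivl was at 12.6 and 6.42 CPM, beside 1.30 and 2.30 CPM (log2 fold change 2.23 ± 0.50, edgeR adjusted p = 0.000723). Lor was at 34.8 and 45.8 CPM and Flg at 151 and 107 CPM, beside 42.6 and 62.8 CPM and 122 and 190 CPM in melanocyte-like cells. With 2 of 23 members higher, the share was under the 23.5% of all genes that were higher. The Sprr1a level in these cells was above the 42.6 and 7.68 CPM of differentiated IFE KCs in both mice, a difference that was not tested.

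In inner root sheath and hair shaft cells 15 of 23 members were higher than in melanocyte-like cells, beside 23.8% of all genes. They were Lor and 14 Lce genes, the latter with log2 fold changes from 1.90 to 2.94 and edgeR adjusted p-values up to 0.0187. Lce1m was at 38.0 and 24.8 CPM, beside 6.05 and 9.32 CPM, and Lor at 104 and 89.1 CPM. The transcripts lay in few cells, since for the 14 Lce genes 5 cells held between 71.4% and 100% of the UMIs in mouse 1 and between 82.5% and 96.7% in mouse 2, and 4 of 363 and 2 of 568 cells had 100 or more Lce UMIs. The number of calls depended on the clustering. At a resolution of 1.2, 13 of 23 members were higher, and with no integration of the mice 13 of 22. At a mitochondrial limit of 5% it was 13 of 24, and with called doublets left out 15 of 23. When the members were allowed among the genes used for clustering, Lce1a1 was no longer higher (log2 difference -0.14), nor were Lce1b (-0.08), Lce1g (-0.34) and Lor (-0.02), and 0 of the 23 members passed the test, so that all 15 calls were lost.

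**Figure D4:**
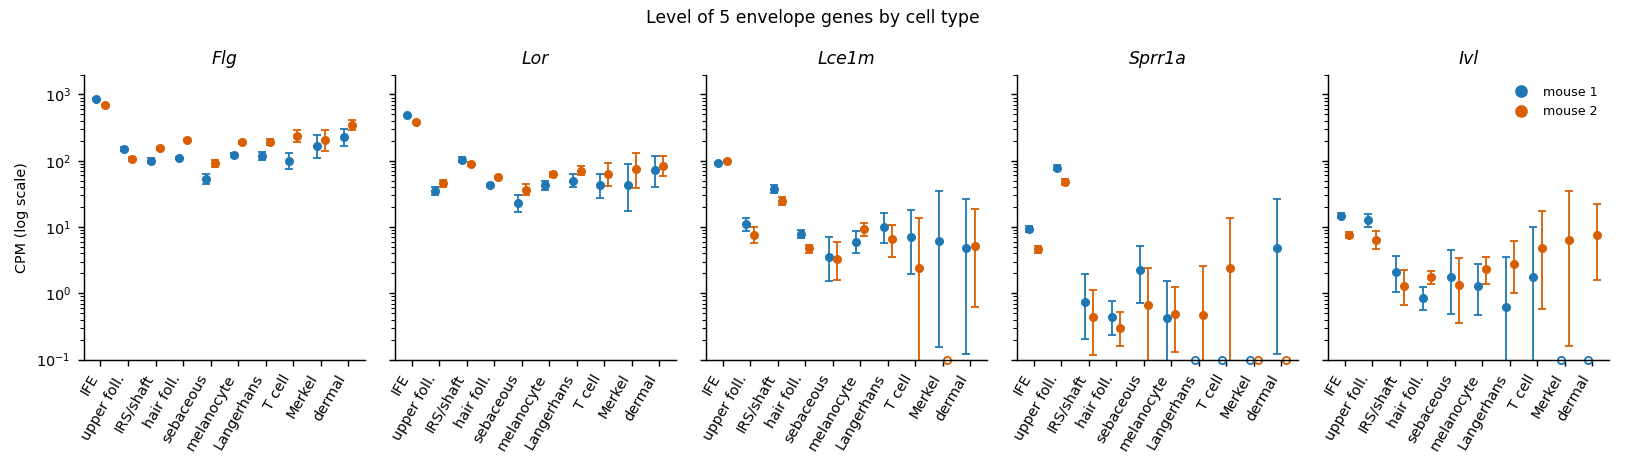
Level in CPM (log scale) of 5 envelope genes in 10 cell types, with 1 point per mouse, exact 95% Poisson intervals and open points at the axis for 0 UMIs. Flg and Lor lie at similar low levels in the types other than IFE KCs, with Lor at 104 and 89.1 CPM in inner root sheath and hair shaft (IRS/shaft) cells, while Sprr1a at 78.1 and 48.4 CPM and Ivl at 12.6 and 6.42 CPM are above melanocyte-like cells in upper follicle KCs.

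Many transcripts of these genes lay in barcodes that the filter removed, which are described here after their values were seen. Of all deposited Flg UMIs 28.5% in mouse 1 and 28.4% in mouse 2 were in kept cells, and 69.5% and 70.6% were in barcodes removed for a mitochondrial share of 10% or more. For the Lce family 15.4% and 51.8% were in kept cells, and 75.5% and 41.8% in barcodes with under 900 genes. Lor was divided among all classes, with 36.2% and 52.8% in kept cells. Ivl and Sprr1b were mostly kept, with 73.3% and 63.5% for Ivl and 91.3% and 79.0% for Sprr1b. The kept cells therefore held a minority of the UMIs of Flg, Flg2 and Hrnr in both mice and of Lor and the Lce family in mouse 1. The terminal cluster held 7221 of 73398 Lce UMIs in mouse 1 and 22286 of 53137 in mouse 2.

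The barcodes that carried Flg and those that carried Lce differed. Weighted by the UMIs of each gene, barcodes with Flg had 3.22% and 3.35% of their UMIs from Krt1 and Krt10 and 23.6% and 20.5% from mitochondrial genes, and 0.563% and 0.188% from Lce genes. Barcodes with Lce UMIs had 0.493% and 0.587% from Krt1 and Krt10, 3.15% and 2.92% from mitochondrial genes, 11.6% and 7.37% from Lor and 0.94% and 0.683% from Flg. Barcodes with Ivl, Sprr1b, Rptn, Hrnr or Flg2 had between 1.66% and 4.55% of UMIs from Krt1 and Krt10, and those with single Lce genes between 0.348% and 0.985%. Sprr1a barcodes had 1.33% and 0.955% from these keratins, Sprr2d barcodes 0.737% and 0.423% and Lor barcodes 1.80% and 2.61%. Mitochondrial genes gave 7.26% and 8.53% of the UMIs of Sprr1b barcodes, 10.9% and 11.4% for Ivl and 25.7% and 19.6% for Flg2. Lor barcodes had 8.37% and 10.5% of UMIs from mitochondrial genes and 16.5% and 7.81% from Lce genes. Over all deposited barcodes, 67 and 51 had 5% or more of their UMIs from Lce genes, and 61 and 32 of these also had 5% or more from Lor. Flg reached 5% in 111 and 172 barcodes, of which 3 and 2 also had 5% or more from Lor. A share of UMIs falls when another gene takes more of them, which bears on the Krt1 and Krt10 shares of barcodes in which Lce genes took 33.0% and 20.5% at the median.

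**Figure D5:**
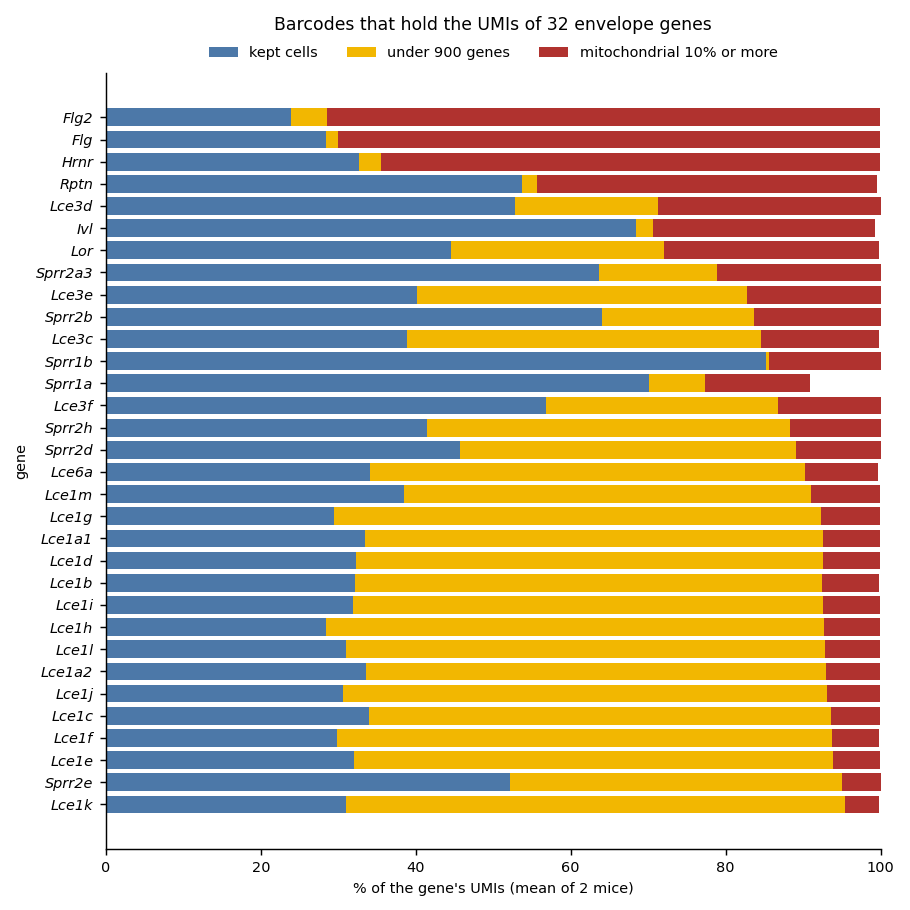
Percentage of the UMIs of each of 32 envelope genes (mean of 2 mice) that lay in kept cells, in barcodes removed for under 900 genes and in barcodes removed for a mitochondrial share of 10% or more, with any remainder in barcodes of over 7700 genes. Flg2, Flg and Hrnr have most of their UMIs in the mitochondrial class, and the Lce1 genes have most in the class of under 900 genes in this mean, though each is under 50% there in mouse 2.

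Within the Lce family Lce1m and then Lce1a1 gave most UMIs in both mice. Lce1m gave 23.0% of all Lce UMIs in mouse 1 and 20.7% in mouse 2, followed by Lce1a1 with 12.3% and 12.2%, Lce1a2 with 10.2% and 9.87%, Lce1b with 9.51% and 9.88% and Lce1d with 8.26% and 8.66%. Lce1g, Lce1c and Lce1l each gave between 5.02% and 6.25%. Lce3c, the leading Lce3 gene, gave 1.03% and 1.41%. In barcodes of under 900 genes Lce1m gave 21.1% and 17.7%, and in kept cells 31.9% and 22.2%. A UMI is counted once for a molecule at its 3′ end, so these proportions were not divided by length, and they carry the uncertainty of the sequence that the genes share.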

How the data were processed

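Cells of the epidermis of 2 KO mice were analysed, with 1 library each. The authors deposited raw UMI counts per gene and barcode for each mouse, made with Cell Ranger 3.0.2 on mm10 per the labels. The labels name Chromium 3′ version 1 chemistry and the study's methods version 3.1, which was not resolved here. Totals were 109756784 and 166441732 UMIs. The study's limits on barcodes were applied (at least 900 and at most 7700 genes, and a mitochondrial share below 10%). Seurat 5.3.0 integrated both mice (2000 variable genes, 30 dimensions, Louvain resolution 0.8), with the members and the assembly list left out of the variable genes. Clusters were named from markers that are not members, by thresholds set after the clusters were seen, so names may differ from the study's. Scrublet (scanpy 1.11.5) called 176 of 7607 and 475 of 11881 cells at the threshold of mouse 2, 0.219. The automatic threshold of mouse 1, 0.595, called 2 cells, and this change was made after seeing the data. Called doublets stayed in, and leaving them out was an alternative.

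Counts were summed per mouse and stage or cell type and tested with edgeR 4.0.16 (quasi-likelihood, TMM, filterByExpr, Benjamini-Hochberg over all genes, call at an adjusted p under 0.05), with 1 fit over stages and 1 over cell types. DESeq2 1.42.0 was an alternative. The steps were tested on simulated data. CPM is UMIs per 1000000 summed UMIs, with exact 95% Poisson intervals. Intervals and the floor of 3 counts cover counting error only. Sums of 1 mouse share an animal. Their deviations from the group means correlated with a median of 0.127 over 10 pairs of stages (-0.009 to 0.325) and 0.044 over 45 pairs of cell types.

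The members and lists were chosen with earlier results of these data known. Named genes are the 7 single genes, the 8 Lce and 8 Sprr genes of highest mean CPM in a stage, up to 5 members called in each other cell type, and members under 20 UMIs. Gene models are GENCODE M21, which held 27645 of 27998 identifiers, and promoters are from RefSeq.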

Additional observations from a re-analysis of the deposited data

Results flagged for a closer look

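The barcodes that the filter removed held envelope transcripts at levels above those of melanocyte-like cells, in data that no comparison between stages used. In barcodes with under 900 genes the Lce family stood at 123200 CPM in mouse 1 and 37090 CPM in mouse 2, beside 26.8 and 32.9 CPM in melanocyte-like cells. In barcodes with a mitochondrial share of 10% or more Flg stood at 8285 and 11030 CPM, beside 122 and 190 CPM in melanocyte-like cells.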

How the results depend on the processing

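For the 64 called values of named genes, 471 values recomputed with a test kept their direction and call, 24 kept their direction and lost the call, and 11 reversed. Values that could not be recomputed, as where a stage was not named, are not in these counts. Of the reversals 7 were at resolution 1.2 and 4 with members allowed in clustering, where 10 and 6 calls were lost. With 1 mouse left out, which allows no test, 126 of 126 kept their direction. With no filter on low counts, members higher numbered 7 in transition against basal KCs and 19 in differentiated against transition KCs. With no integration these were 1 and 21, and with members allowed in clustering the second was 19. At resolution 1.2 it was 1, and 13 were higher in the terminal stage, but both stages held other cells than at 0.8. There the log2 difference between differentiated and transition KCs was -0.75 for Flg2, -0.31 for Hrnr, -0.94 for Ivl, -0.98 for Rptn and -1.11 for Sprr1a, and between terminal and differentiated KCs 1.18 for Evpl and 1.86 for Tgm3. With members allowed in clustering, calls of higher members outside the IFE went from 17 to 4, and those in inner root sheath and hair shaft cells from 15 to 0, where Lce1a1 (-0.14), Lce1b (-0.076), Lce1g (-0.34) and Lor (-0.022) reversed. Members later than Flg numbered 26, but 0 at an onset limit of 50%, 0 at resolution 1.2, 0 with members allowed and 6 along the bins. Where the count was 0, Flg did not begin before the last stage named, so no member could come later. The cause of the other changes was not tested. No terminal stage was named with members allowed or with no integration, and a 5% mitochondrial limit left no stage comparison. In single mice the members' median log2 difference ranged from -0.16 to 1.30 in transition, 0.59 to 4.07 in differentiated and 6.28 to 9.16 in terminal KCs. Thinning to 3000 UMIs lowered the share of cells with a UMI to 37.7% for Flg in differentiated KCs, 70.8% for Lor in the terminal cluster and 38.9% for Flg in melanocyte-like cells. At this equal depth the Flg shares of differentiated KCs and melanocyte-like cells were thus alike. With the mouse as a replicate block, 0, 12 and 27 members were higher in the 3 steps, and 8 calls were gained (Lce1b, Sprr1a and those given for Langerhans-like, sebaceous and upper follicle cells) with none lost. The terminal cluster of 38 and 44 cells limits the precision of its values.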
